A study of Homo sapiens with 12 samples.

Results

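The 10 genes described here are the transforming growth factor beta (TGF-beta) ligands TGFB1 and TGFB2, the receptors TGFBR1 and TGFBR2, the signal transducer SMAD3, the inhibitors SMAD7, SKIL, SKI and PMEPA1, and the target gene BHLHE40. They were taken by symbol from the 28100 genes of a transcript count table, with the transcript of the most counts standing for each gene, and all 10 passed the filter on low counts that left 13116 genes for testing. The table covers MV3, an established human melanoma cell line, in 4 groups of 3 libraries. The M1 EV, M0 EV and M2 EV groups were kept for 24 h with extracellular vesicles (EVs), at 1e10 particles in each well, from M1, M0 or M2 macrophages, and the Ctrl group was given PBS. All 4 groups had first spent 3 h in RPMI medium with 1% EV-depleted serum. The macrophages were derived from THP-1, a human monocytic leukaemia line, and had been polarized for 48 h, and the vesicles were collected by ultracentrifugation. The labels name neither the polarizing agents nor whether replicates were separate cultures or vesicle preparations, so the p-values measure only the spread between these samples, which may be technical.

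TGF-beta ligands are secreted in a latent form and, once released, bring type II and type I receptors together. The type I receptor phosphorylates SMAD2 and SMAD3, which enter the nucleus with SMAD4 and bind short DNA elements beside other factors. The pathway restrains itself: SMAD7 blocks the receptor, SKI and SKIL repress SMAD complexes, and PMEPA1 holds back receptor-activated SMADs. In melanoma the pathway is known for effects on growth, invasion and the loss of pigment-cell features.

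The libraries held between 9694843 and 14379738 counts over all genes, and the scaling factors lay between 0.993 and 1.007. M0 EV replicate 1 stood apart from replicates 2 and 3 of its group, with a chi-square per degree of freedom of 2.03 and 2.34 over genes, against 1.04 between replicates 2 and 3. Of 9 melanocytic melanoma markers 1 passed the filter, and the pigment enzymes TYR and DCT, with S100B, had 0 counts in every library. For these marker sums CPM are counts scaled to library size alone. CPM of single genes below are also scaled by TMM. The melanocytic markers summed to between 2.253 and 3.333 CPM in M1 EV and between 2.521 and 3.343 CPM in M0 EV. They summed to between 1.959 and 2.782 CPM in M2 EV and between 2.166 and 2.489 CPM in Ctrl. Of 5 markers of undifferentiated melanoma, AXL, NGFR, SOX9, EGFR and FOSL1, 4 passed the filter. The 5 summed to between 1629 and 1735 CPM in M1 EV against 1989 to 2019 CPM in Ctrl. Their sums were 1983 to 2043 CPM in M0 EV and 1965 to 2012 CPM in M2 EV. Over the 3 libraries of each group, AXL had 32053 unscaled counts in M1 EV and 40628 in Ctrl. SOX9 had 2576 and 3450, FOSL1 9176 and 9626, and NGFR 3 and 7, while EGFR had 8497 and 8101. The part of the difference between the sums in the results below was not tested. Of 12 macrophage markers 1, CD68, passed the filter, and CD163 and TYROBP had 0 counts in every library. The macrophage markers summed to between 67.34 and 67.97 CPM in M1 EV, 57.54 and 59.47 CPM in M0 EV, 59.73 and 62.5 CPM in M2 EV, and 55.6 and 61.99 CPM in Ctrl. Nearly all of each sum was CD68, with 2063 counts over the 3 M1 EV libraries and 1755 over those of Ctrl. The next highest, CSF1R, had 16 and 10 counts. In these bulk samples a change in the mix of cells and a change in RNA per cell cannot be told apart.

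Of the 10 genes 6 rose with M1 vesicles relative to PBS. PMEPA1 was 2.533-fold and BHLHE40 1.766-fold of the Ctrl level, and TGFB1, SMAD3, SMAD7 and SKIL stood between 1.214-fold and 1.249-fold. TGFBR1 was 0.9149-fold, and TGFB2, TGFBR2 and SKI did not pass the test. Calls were made at an adjusted p under 0.05 in edgeR's quasi-likelihood test, with p-values adjusted by the Benjamini-Hochberg method over all 13116 genes. By that rule 28.1% of all genes were called in M1 EV against Ctrl, 14.3% higher and 13.7% lower. The ranges of M1 EV and Ctrl lay apart in the same 6 genes upward and in TGFBR1 downward, as they did upward in 19.6% and downward in 20.0% of all genes. The median log2 fold change was 0.286 over the 10 genes and 0.000766 over all genes tested. The 10 genes were chosen with earlier results of these data known, so the counts and the median are a description only. Against Ctrl, M0 EV and M2 EV called 0 of the 10.

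**Figure D1:**
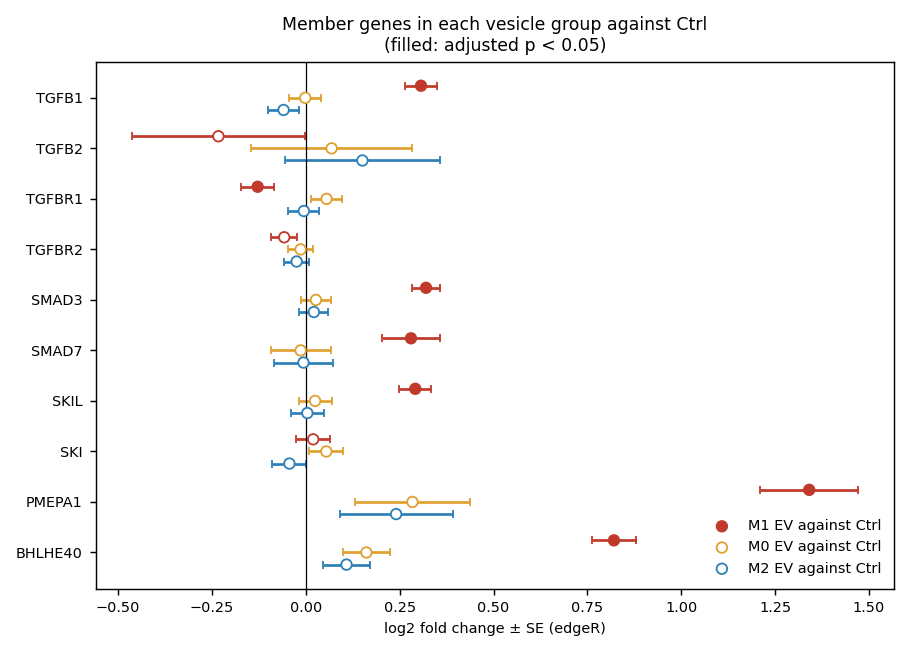
Log2 fold change (x axis, edgeR, bars show the SE) of each of the 10 genes in M1 EV, M0 EV and M2 EV against Ctrl, with n = 3 libraries per group; filled points passed an adjusted p of 0.05. PMEPA1 at 1.34 and BHLHE40 at 0.82 stand farthest to the right in M1 EV, and every M0 EV and M2 EV point is open.

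The promoter windows of 5 of these genes are shown because 4 of the 5 inhibitor and target genes, all but SKI, rose in M1 EV and because TGFB1, which also rose, holds none of the motifs searched. Each is the 300 bases from 250 before to 50 after a RefSeq start site (GRCh38.p14), read 5′ to 3′ on the gene's strand, and is the window whose start lies nearest the start of the counted transcript. The windows are chr20:57709966-57710265 on the minus strand for PMEPA1, chr3:4979187-4979486 on the plus strand for BHLHE40, chr18:48950916-48951215 on the minus strand for SMAD7, chr3:170357465-170357764 on the plus strand for SKIL and chr19:41353873-41354172 on the minus strand for TGFB1. The start sites lie 113, 1908 and 11 bases upstream of the start of the counted transcript in PMEPA1, SKIL and TGFB1, in that order. In BHLHE40 and SMAD7 they lie 321 and 1087 bases downstream of it. The windows of BHLHE40 and SMAD7 thus lie wholly downstream of the counted transcript's start, and those of PMEPA1 and SKIL wholly upstream. Only the TGFB1 window spans it. Capitals mark matches to the SMAD box, the AP-1 site or the class B E-box, on either strand.

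PMEPA1: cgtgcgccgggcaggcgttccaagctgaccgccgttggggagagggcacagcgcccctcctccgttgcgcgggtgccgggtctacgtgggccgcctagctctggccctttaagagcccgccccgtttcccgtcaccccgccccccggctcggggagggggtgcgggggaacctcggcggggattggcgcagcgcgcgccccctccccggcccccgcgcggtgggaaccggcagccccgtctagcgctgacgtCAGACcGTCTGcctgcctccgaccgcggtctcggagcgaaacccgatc

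BHLHE40: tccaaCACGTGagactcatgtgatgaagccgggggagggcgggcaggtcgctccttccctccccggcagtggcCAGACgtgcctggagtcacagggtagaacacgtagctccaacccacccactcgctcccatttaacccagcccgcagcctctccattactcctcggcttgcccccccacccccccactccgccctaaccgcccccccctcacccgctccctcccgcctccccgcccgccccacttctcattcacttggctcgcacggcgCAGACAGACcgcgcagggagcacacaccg

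SMAD7: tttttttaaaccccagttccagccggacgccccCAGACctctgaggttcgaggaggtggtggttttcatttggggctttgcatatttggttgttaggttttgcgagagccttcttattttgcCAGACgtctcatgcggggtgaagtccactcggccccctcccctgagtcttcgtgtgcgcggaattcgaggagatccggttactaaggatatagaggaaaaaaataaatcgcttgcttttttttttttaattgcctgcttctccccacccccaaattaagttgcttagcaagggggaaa

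SKIL: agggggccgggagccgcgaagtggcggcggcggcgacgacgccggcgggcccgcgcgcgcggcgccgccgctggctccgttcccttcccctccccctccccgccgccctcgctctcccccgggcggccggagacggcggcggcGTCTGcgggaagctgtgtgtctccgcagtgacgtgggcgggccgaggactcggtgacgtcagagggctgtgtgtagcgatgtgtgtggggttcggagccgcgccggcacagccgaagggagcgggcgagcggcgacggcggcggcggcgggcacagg

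TGFB1: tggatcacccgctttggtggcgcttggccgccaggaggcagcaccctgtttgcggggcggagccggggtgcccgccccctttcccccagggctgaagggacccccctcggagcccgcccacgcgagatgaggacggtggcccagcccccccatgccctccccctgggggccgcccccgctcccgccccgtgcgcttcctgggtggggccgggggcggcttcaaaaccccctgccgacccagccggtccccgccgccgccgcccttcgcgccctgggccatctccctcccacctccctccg

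The motifs searched were the SMAD box CAGAC, the AP-1 site TGANTCA and the class B E-box CACGTG. PMEPA1 held 2 SMAD boxes, at +3 and +9 from the start site. BHLHE40 held 3, at -177, +22 and +26, of which the last pair overlaps by 1 base, and a class B E-box at -245. SMAD7 held SMAD boxes at -217 and -128, and SKIL 1 at -107. Windows were found for 9 of the 10 genes, SKI being the exception. A SMAD box was in 7 of the 9, an AP-1 site in 1 (TGFBR2) and a class B E-box in 3 (TGFB2, SMAD3 and BHLHE40). Over all 35116 RefSeq windows of this length, 45.3% held a SMAD box, 7.71% an AP-1 site and 7.26% a class B E-box. A match describes the letters only.

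**Figure D2:**
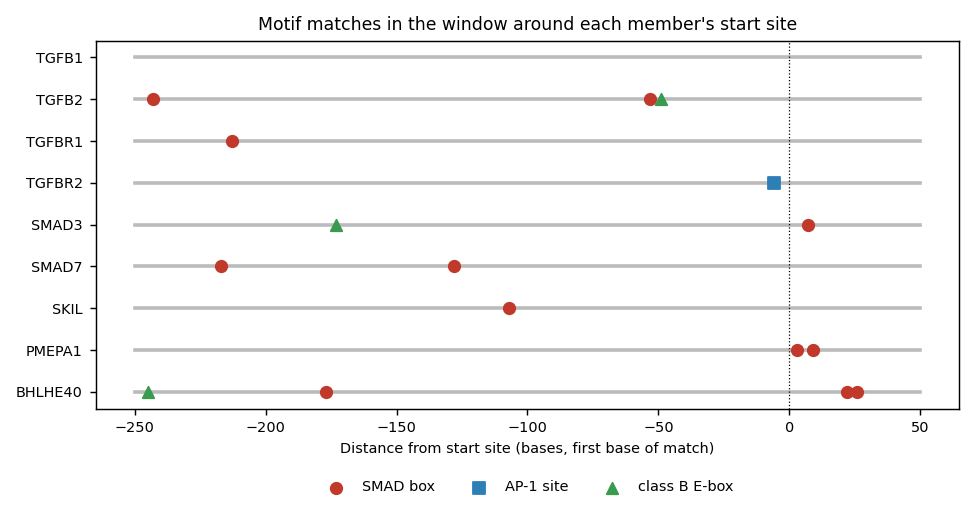
Matches to 3 motifs (SMAD box, AP-1 site, class B E-box) along the 300-base window of 9 genes, with the distance of the first base of each match from the start site in bases on the x axis. TGFB1 has no match, and BHLHE40 has 3 SMAD boxes and 1 class B E-box.

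The ligand TGFB1 (chromosome 19, 41330323 to 41353922, GRCh38.p14) had 139, 147 and 136 CPM in the M1 EV libraries, 111, 118 and 112 CPM in M0 EV, 112, 111 and 104 CPM in M2 EV and 116, 113 and 112 CPM in Ctrl. Every M1 EV library lay above every library of the other groups. TGFB1 rose in M1 EV against Ctrl by a log2 fold change of 0.31 ± 0.0414 (SE, n = 3 each, edgeR adjusted p = 2.037e-07). TGFB2 (chromosome 1, 218345336 to 218444619) was the lowest of the 10, with 16 to 20 counts per library in M1 EV and 19 to 24 in Ctrl. It had 2.07, 1.73 and 1.57 CPM in M1 EV, 2.04, 2.29 and 2.30 CPM in M0 EV, 2.54, 1.94 and 2.59 CPM in M2 EV and 2.40, 1.95 and 1.95 CPM in Ctrl. The M1 EV and Ctrl ranges overlapped, the log2 fold change was -0.23 ± 0.2306 (edgeR adjusted p = 0.5583), and a change of that size was not detectable at this depth. Leaving out Ctrl replicate 1 gave -0.13 and leaving out M1 EV replicate 3 gave -0.15.

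The type I receptor TGFBR1 (chromosome 9, 99103647 to 99154192) had 104, 99.2 and 107 CPM in M1 EV, 113, 122 and 116 CPM in M0 EV, 107, 116 and 113 CPM in M2 EV and 112, 115 and 112 CPM in Ctrl. The M1 EV libraries lay below all others, by a small margin. TGFBR1 fell in M1 EV against Ctrl by a log2 fold change of -0.13 ± 0.04317 (edgeR adjusted p = 0.02253). It no longer passed with DESeq2 (adjusted p = 0.0721), without Ctrl replicate 2 (edgeR adjusted p = 0.0741) and without M1 EV replicate 2 (edgeR adjusted p = 0.131). The type II receptor TGFBR2 (chromosome 3, 30606356 to 30694142), which binds ligand first, had 267, 272 and 286 CPM in M1 EV, 276, 285 and 289 CPM in M0 EV, 277, 279 and 287 CPM in M2 EV and 286, 286 and 285 CPM in Ctrl. Its groups overlapped, and the log2 fold change in M1 EV against Ctrl was -0.058 ± 0.03418 (edgeR adjusted p = 0.2239).

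SMAD3 (chromosome 15, 67065602 to 67195169), a receptor-activated SMAD, had 222, 233 and 213 CPM in M1 EV, 177, 187 and 182 CPM in M0 EV, 179, 189 and 175 CPM in M2 EV and 179, 179 and 178 CPM in Ctrl. All 3 M1 EV libraries stood above the others. SMAD3 rose in M1 EV against Ctrl by a log2 fold change of 0.32 ± 0.03849 (edgeR adjusted p = 1.657e-08). The inhibitory SMAD7 (chromosome 18, 48919853 to 48950965) had 27.3, 27.5 and 28.7 CPM in M1 EV, 21.0, 21.9 and 25.2 CPM in M0 EV, 21.7, 25.3 and 21.0 CPM in M2 EV and 23.2, 21.4 and 24.0 CPM in Ctrl. Its M1 EV libraries were above every other library, and SMAD7 rose against Ctrl by a log2 fold change of 0.28 ± 0.07784 (edgeR adjusted p = 0.005459).

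The corepressor SKIL (chromosome 3, 170357715 to 170396849), also called SnoN, had 113, 109 and 120 CPM in M1 EV, 92.5, 97.0 and 94.8 CPM in M0 EV, 90.8, 93.3 and 95.5 CPM in M2 EV and 90.3, 95.4 and 93.5 CPM in Ctrl. The M1 EV range lay above the other 3 groups, and SKIL rose against Ctrl by a log2 fold change of 0.29 ± 0.04308 (edgeR adjusted p = 1.21e-06). Its relative SKI (chromosome 1, 2228319 to 2310213) had 199, 224 and 193 CPM in M1 EV, 197, 209 and 226 CPM in M0 EV, 197, 203 and 189.8 CPM in M2 EV and 202, 197 and 208 CPM in Ctrl. SKI overlapped between all groups, with a log2 fold change of 0.020 ± 0.04611 in M1 EV against Ctrl (edgeR adjusted p = 0.7999).

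PMEPA1 (chromosome 20, 57648396 to 57711472), a membrane-anchored inhibitor of SMAD signalling, had 9.50, 9.85 and 9.61 CPM in M1 EV, 4.56, 4.97 and 4.43 CPM in M0 EV, 4.69, 4.17 and 4.72 CPM in M2 EV and 3.40, 3.70 and 4.26 CPM in Ctrl. No library of another group reached the lowest M1 EV library. These levels rest on 92 to 108 counts per library in M1 EV and 34 to 48 in Ctrl. PMEPA1 rose in M1 EV against Ctrl by a log2 fold change of 1.34 ± 0.1302 (edgeR adjusted p = 1.134e-10), the largest among the 10 genes. The counts assigned to the transcript used but not to a second transcript were 14.5, 12.0 and 15.0 in M1 EV, 8.0, 6.0 and 4.0 in M0 EV, 10.5, 11.5 and 7.0 in M2 EV and 7.5, 6.0 and 5.0 in Ctrl. With that second transcript standing for the gene the log2 fold change was 1.36 (edgeR adjusted p = 1.021e-09).

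BHLHE40 (chromosome 3, 4979437 to 4985323), a transcriptional repressor known to bind class B E-boxes, had 65.3, 71.5 and 62.9 CPM in M1 EV, 45.5, 40.2 and 40.6 CPM in M0 EV, 40.2, 38.9 and 43.0 CPM in M2 EV and 36.4, 38.4 and 38.4 CPM in Ctrl. The M1 EV libraries lay far above the rest, and each M0 EV and M2 EV library lay above each Ctrl library. BHLHE40 rose in M1 EV against Ctrl by a log2 fold change of 0.82 ± 0.05894 (edgeR adjusted p = 2.916e-14).

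**Figure D3:**
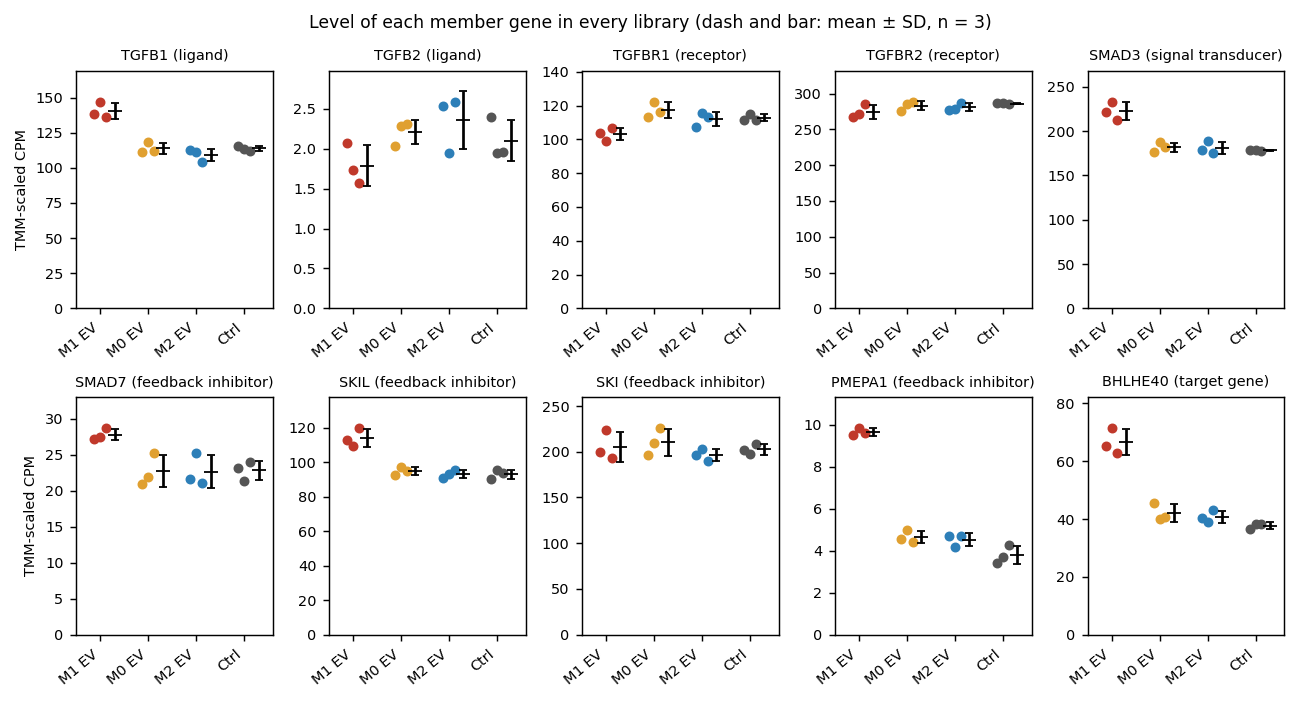
CPM (y axis, from 0) of each of the 10 genes in every library of M1 EV, M0 EV, M2 EV and Ctrl; points are libraries and the dash with its bar is the mean ± SD (n = 3). PMEPA1 libraries sit between 9.50 and 9.85 CPM in M1 EV and between 3.40 and 4.26 CPM in Ctrl.

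Divided by the length of the counted transcript (GENCODE release 29), the levels in Ctrl ran from TGFBR2 at 62.12 CPM per kb through TGFB1 at 41.11, SKI at 36.09, SMAD3 at 28.57, TGFBR1 at 19.01, SKIL at 12.96, BHLHE40 at 10.86 and SMAD7 at 5.16 CPM per kb to PMEPA1 at 0.7816 and TGFB2 at 0.4159 CPM per kb. Neighbours in this order did not overlap in Ctrl or in M2 EV. In M1 EV the order was the same except that BHLHE40, at 19.17 CPM per kb, stood above TGFBR1 at 17.39 and SKIL at 15.87 CPM per kb. SKI and SMAD3, at 36.56 and 35.65 CPM per kb, overlapped in M1 EV. In M0 EV the overlapping neighbours were TGFB1 with SKI and SKIL with BHLHE40. PMEPA1, which changed most, had the lowest level but TGFB2's in each group.

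**Figure D4:**
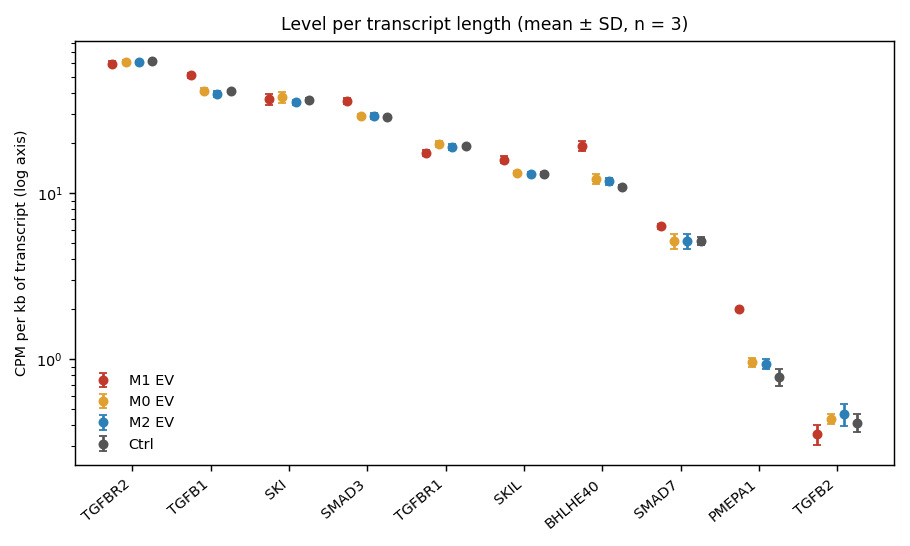
Mean CPM per kb of counted transcript (log y axis, bars show the SD, n = 3) of the 10 genes, in the order of Ctrl, for M1 EV, M0 EV, M2 EV and Ctrl. The levels run from 62.12 CPM per kb for TGFBR2 to 0.4159 CPM per kb for TGFB2 in Ctrl.

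M0 and M2 vesicles gave no call among the 10 genes. In M0 EV against Ctrl 1 of the 10 had an unadjusted p under 0.05, and 0.0152% of all genes were called (2 by edgeR and 0 by DESeq2, with 665 at an unadjusted p under 0.05). Without M0 EV replicate 1 that count was 86 of all genes and still 0 of the 10, and without Ctrl replicate 3 or M0 EV replicate 2 it was 0, and without Ctrl replicate 2 or M0 EV replicate 3 it was 1 of all genes. In M2 EV against Ctrl 0 of the 10 had an unadjusted p under 0.05, and 0.0457% of all genes were called (6 by edgeR and 1 by DESeq2, with 814 at an unadjusted p under 0.05). That count was 0 without Ctrl replicate 1 or M2 EV replicate 3, 1 without Ctrl replicate 3, M2 EV replicate 1 or M2 EV replicate 2, 26 without Ctrl replicate 2 and 62 in a fit of the 2 groups alone, with 0 of the 10 genes in each. BHLHE40 had a log2 fold change of 0.16 ± 0.06348 in M0 EV (edgeR adjusted p = 0.8204) and of 0.11 ± 0.0626 in M2 EV (edgeR adjusted p = 0.8851), with ranges above Ctrl in both. Its log2 fold change was 0.093 in M0 EV without M0 EV replicate 1, and 0.063 in M2 EV without M2 EV replicate 3. PMEPA1 had a log2 fold change of 0.28 ± 0.1531 in M0 EV (edgeR adjusted p = 0.9986), where its range lay above Ctrl, and of 0.24 ± 0.1502 in M2 EV (edgeR adjusted p = 0.9427), where the ranges overlapped. Ranges lay wholly above Ctrl for 5.0% of all genes in M0 EV and 5.79% in M2 EV. These comparisons share the Ctrl libraries.

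The vesicle groups were also set against each other. In M1 EV against M0 EV 6 of the 10 genes were higher and 1, TGFBR1, was lower, where 25.3% of all genes were called, 12.5% higher and 12.8% lower. PMEPA1 rose by a log2 fold change of 1.06 ± 0.1213 (edgeR adjusted p = 7.325e-09) and BHLHE40 by 0.66 ± 0.0566 (edgeR adjusted p = 5.254e-12). TGFBR1 fell by a log2 fold change of -0.18 ± 0.04247 (edgeR adjusted p = 0.00107). The others that rose were TGFB1 at 0.31, SMAD3 at 0.29, SMAD7 at 0.29 and SKIL at 0.27.

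In M1 EV against M2 EV 6 of the 10 were again higher and TGFBR1 lower, where 24.6% of all genes were called, 12.6% higher and 12.0% lower. PMEPA1 rose by a log2 fold change of 1.10 ± 0.1186 (edgeR adjusted p = 1.761e-09) and BHLHE40 by 0.71 ± 0.05572 (edgeR adjusted p = 3.96e-13). TGFB1 rose by 0.37, SMAD3 by 0.30, SMAD7 by 0.29 and SKIL by 0.29 on the log2 scale. TGFBR1 had a log2 fold change of -0.12 ± 0.0421 (edgeR adjusted p = 0.02768), and it no longer passed with DESeq2 (adjusted p = 0.0999), nor on leaving out M1 EV replicate 1 (edgeR adjusted p = 0.0559), M1 EV replicate 2 (0.165), M2 EV replicate 2 (0.165) or M2 EV replicate 3 (0.0815). In M2 EV against M0 EV edgeR and DESeq2 called 0 of all genes (0.0%), with 447 at an unadjusted p under 0.05 by edgeR, among them SKI of the 10 genes with a log2 fold change of -0.098 ± 0.04497 (edgeR adjusted p = 0.9999). Without M0 EV replicate 1 edgeR called 36 of all genes and 0 of the 10. Leaving out M0 EV replicate 1 gave -0.14 for SKI, while leaving out replicate 3 of that group gave -0.042.

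The rest of the pathway was described from a list of 106 further genes in 7 classes. The list was also chosen with earlier results of these data known, and 81 of its genes were tested. Of these, 28 rose and 7 fell in M1 EV against Ctrl, with a median log2 fold change of 0.0578, beside 14.3% higher and 13.7% lower among all genes. In M0 EV and M2 EV against Ctrl 0 were called. Among target genes 15 of 26 tested rose and 3 fell, with a median of 0.239, beside the same 14.3% and 13.7% of all genes. The share that fell was thus near that of all genes. The class was not split by whether TGF-beta raises or lowers a gene. The cell-cycle inhibitor CDKN1A averaged 18.5 ± 0.865 CPM in M1 EV and 7.23 ± 0.406 CPM in Ctrl (SD, n = 3 each), a log2 fold change of 1.35 ± 0.0962 (edgeR adjusted p = 2.201e-14). The AP-1 subunit JUNB averaged 49.2 ± 3.54 CPM in M1 EV and 21.3 ± 1.58 CPM in Ctrl, a log2 fold change of 1.21 ± 0.067 (edgeR adjusted p = 1.491e-17). ID3, an inhibitor of DNA binding, rose by 0.87 and the cytokine IL11 by 0.72 on the log2 scale. The 3 that fell, named after their values were seen, were fibronectin FN1 at -0.24, the protease ADAM12 at -0.37 and the cell-cycle inhibitor CDKN2B at -0.44, whose call was lost with DESeq2 (adjusted p = 0.05505).

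Among 12 tested genes of ligand latency and activation 6 rose and 1 fell, where 14.3% of all genes were higher and 13.7% lower. Thrombospondin THBS1, which can activate latent TGF-beta, averaged 662 ± 21.0 CPM in M1 EV and 411 ± 2.59 CPM in Ctrl (SD, n = 3 each), a log2 fold change of 0.69 ± 0.033 (edgeR adjusted p = 1.838e-19). The integrin subunit ITGAV rose by 0.44 and the activin antagonist FST by 0.74 on the log2 scale. LTBP1, which holds latent ligand in the matrix, had 0.44 ± 0.147 (edgeR adjusted p = 0.0393) and FSTL3 0.32 ± 0.102 (edgeR adjusted p = 0.01666). LTBP1 lost its call with DESeq2 (adjusted p = 0.153), with no filter (edgeR adjusted p = 0.0541) and without any 1 library other than M1 EV replicate 2, and FSTL3 with DESeq2 (adjusted p = 0.0818), without Ctrl replicate 2 (edgeR adjusted p = 0.0672) and without M1 EV replicate 1 (edgeR adjusted p = 0.257), where the FSTL3 log2 fold change was 0.19. LTBP3 was the gene that fell, by a log2 fold change of -0.21, and was named after its value was seen.

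The activin subunit INHBA was the ligand that rose, of 3 tested, with 18.3 ± 0.148 CPM in M1 EV and 10.3 ± 1.27 CPM in Ctrl (SD, n = 3 each), a log2 fold change of 0.84 ± 0.0997 (edgeR adjusted p = 1.341e-08). Of 6 tested receptors ENG rose by 0.17 and the co-receptor CD109 fell by a log2 fold change of -0.31. Of 10 SMADs and co-factors the adaptor HGS had 0.16 ± 0.043 (edgeR adjusted p = 0.005046), a call lost without M1 EV replicate 2 (edgeR adjusted p = 0.0603), and ZFYVE9, the SMAD anchor SARA, fell by a log2 fold change of -0.23. Of 15 inhibitors and turnover genes SMURF1, a ubiquitin ligase for SMADs, rose by 0.23 and STRAP by a log2 fold change of 0.12. The 9 tested genes of the bone morphogenetic protein (BMP) arm were led by BMP2, which rose by 0.38, and BMP6, which rose by 0.32 on the log2 scale, and the receptor BMPR1A fell by a log2 fold change of -0.23. In M1 EV against Ctrl 14.3% of all genes were higher and 13.7% lower. The calls among receptors, SMADs and co-factors, and inhibitors and turnover genes lay near or below those shares. In M1 EV against M0 EV 28 of the 81 rose and 9 fell, where 12.5% of all genes were higher and 12.8% lower. In M1 EV against M2 EV 30 rose and 8 fell, where 12.6% of all genes were higher and 12.0% lower.

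**Figure D5:**
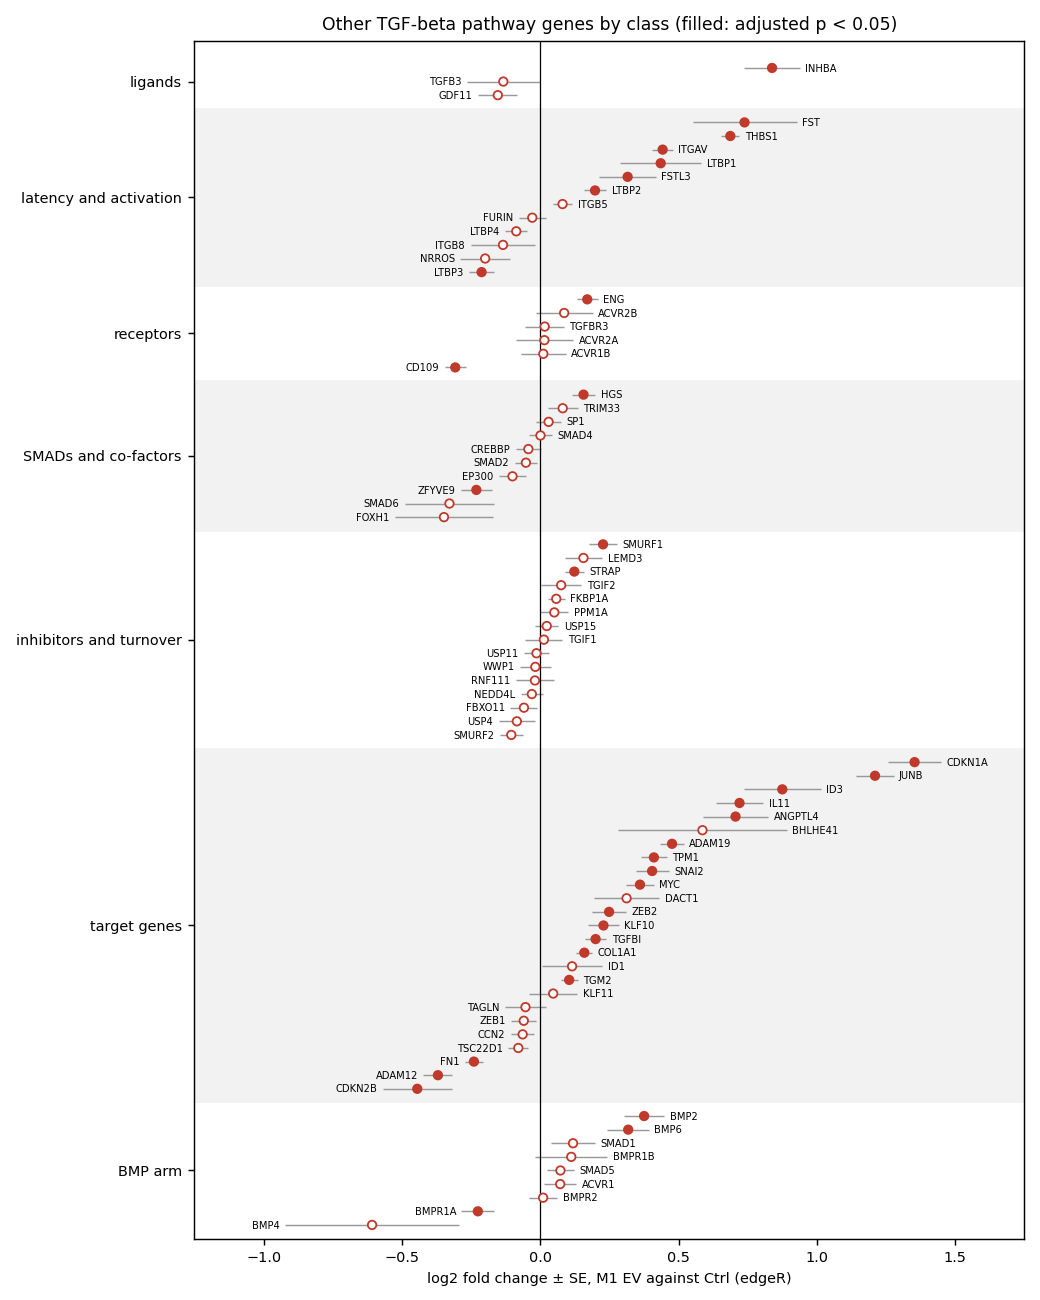
Log2 fold change in M1 EV against Ctrl (x axis, edgeR, bars show the SE, n = 3 each) of the tested pathway genes outside the 10, grouped by class, with 1 target gene not drawn; filled points passed an adjusted p of 0.05. CDKN1A at 1.35 and JUNB at 1.21 are farthest right among the target genes.

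For the 3 genes with the largest change, the genes with the most similar log2 fold changes in M1 EV, M0 EV and M2 EV against Ctrl were found among 12759 genes by Euclidean distance over those 3 values. Nearest to PMEPA1 were CDKN1A at a distance of 0.0171, the NF-kappaB inhibitor NFKBIA at 0.136 and G0S2 at 0.196. Nearest to BHLHE40 were the hyaluronan synthase HAS2 at 0.0777, C10orf55 at 0.0924 and GFPT2 at 0.0982, and nearest to SMAD3 were OAF at 0.0101, CLUH at 0.0125 and IMP4 at 0.0171. The 3 values share the Ctrl libraries, so these distances are a description.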

How the data were processed

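The authors deposited expected counts without normalization, in one table of 12 libraries and 70507 RefSeq transcripts. Values move in steps of 0.5, and 51.3% of those above 0 are not whole. STAR 2.6.1b and HOMER 4.10 were used with hg38, per the submitters' processing notes; their roles and whether strand was used are not given in the sources used here. Libraries were directional and poly(A)-enriched, per the labels' protocols. A column name that lacks the digit of MV3 was matched to M0 EV replicate 1, since each other library had a column.

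Transcripts were named with RefSeq (GRCh38.p14, 69830) or GENCODE release 29 (343); the 334 left over held 0.058% to 0.062% of the counts. For each of 28100 genes the transcript of the highest summed count was kept and rounded to whole counts; other transcripts of a member held 78.7% to 100.0% of the used transcript's counts. Gene totals were 9694843 to 14379738 per library. edgeR 4.0.16 (R 4.3.3) kept 13116 genes by its default filter, scaled by TMM (factors 0.993 to 1.007) and fitted a quasi-likelihood model with 1 term per group over all 12 libraries (8 residual degrees of freedom). It was checked on counts simulated with 1 spread shared by all genes. In M1 EV against Ctrl it recovered 64% of 50 genes changed 1.25-fold and 98% of 50 changed 1.5-fold. Of its 191 calls there, 10 were false. Tests were 2-sided, with Benjamini-Hochberg adjustment over all tested genes of a comparison. The members and lists were chosen with earlier results of these data known. From the pathway list the text names, per class, up to 5 called genes with the largest change in M1 EV against Ctrl at a mean of at least 1 CPM. The values of 1 target gene on that list are not reported here; it stays in the counts. Alternatives were DESeq2 1.42.0, limma-voom (limma 3.58.1), other scalings, filters and transcripts, fits of the 2 groups alone, a replicate block and leaving out each library.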

Additional observations from a re-analysis of the deposited data

How the results depend on the processing

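The number of the 10 genes called was 6 to 7 in M1 EV against Ctrl and in M1 EV against M2 EV, 7 in M1 EV against M0 EV and 0 in the other comparisons, over all alternatives run; TGFBR1 is the gene that moved. Pathway genes called without 1 library ranged from 33 to 36 in M1 EV against Ctrl, 31 to 38 in M1 EV against M0 EV, 31 to 40 in M1 EV against M2 EV and 0 to 1 in M2 EV against M0 EV (1 without M0 EV replicate 1). In M1 EV against Ctrl DESeq2 called 32 pathway genes and 2555 of all genes, where edgeR called 35 and 3682. Correlations between the deviations of same-numbered replicates ran from -0.18 to 0.28 (median 0.031, over 0.1 in 3 of 18 pairs). The 3 pairs were M0 EV 1 with M1 EV 1 (0.28), M1 EV 3 with M2 EV 3 (0.22) and M1 EV 1 with M2 EV 1 (0.15). By these correlations 6 of 12 libraries were nearest their own number. A replicate block gave 7 genes of the 10 in each M1 EV comparison and 0 elsewhere, with 36, 39 and 38 pathway genes called against Ctrl, M0 EV and M2 EV.

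Over all genes, dropping the filter called 53 in M0 EV against Ctrl, 31 in M2 EV against Ctrl and 12 in M2 EV against M0 EV, and the replicate block called 20, 7 and 1. Upper-quartile scaling called 4 in each comparison of M0 EV or M2 EV with Ctrl, and the second transcript called 3 in M2 EV against Ctrl.

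Signs turned only for log2 fold changes that were not called. Leaving out 1 library gave SKI -0.048 to 0.064 in M1 EV against Ctrl, -0.099 to 0.023 in M1 EV against M0 EV, -0.0031 to 0.11 in M1 EV against M2 EV and -0.0026 to 0.099 in M0 EV against Ctrl. In M0 EV against Ctrl it gave TGFB1 -0.031 to 0.011, TGFBR2 -0.031 to 0.00011 and SMAD7 -0.10 to 0.042. In M2 EV against Ctrl it gave TGFBR1 -0.030 to 0.022, SMAD3 -0.012 to 0.046, SMAD7 -0.10 to 0.052 and SKIL -0.018 to 0.020. In M2 EV against M0 EV it gave TGFB2 -0.0032 to 0.22, TGFBR2 -0.026 to 0.0050, SMAD3 -0.039 to 0.022, SMAD7 -0.090 to 0.093, PMEPA1 -0.079 to 0.021 and BHLHE40 -0.095 to 0.015. Upper-quartile scaling gave TGFBR1 0.0015 and SMAD7 0.00051 in M2 EV against Ctrl and SMAD3 0.0025 in M2 EV against M0 EV; the cause was not tested. M0 EV replicates 2 and 3 differed least (chi-square per degree of freedom 1.04), and summing them as 1 sample, an alternative chosen after seeing the data, gave SMAD3 0.0029 in M2 EV against M0 EV. Depth limits TGFB2 and PMEPA1 most.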
